A study of Mus musculus with 2 samples.

Results

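The genes described are 10 parts of the smooth muscle contractile apparatus, Acta2, Myh11, Tagln, Cnn1, Myl9, Mylk, Lmod1, Smtn, Flna and Cald1, chosen by name and read from both deposited tables, in which all 10 of 10 were found among 18920 genes. They were followed in single cells of the aortic root with the ascending aorta from pooled male and female mice 16 weeks of age, all carrying the Fbn1C1041G/+ allele of fibrillin-1, which models Marfan syndrome. One library came from mice given GLPG0187, an inhibitor of integrin alpha v according to the submitters, each day from 6 to 16 weeks, and the other from mice given vehicle over the same time. No wild-type mice were analysed here, so both groups share the mutation. Each group was 1 library of pooled animals of a number the sources used here do not state, so no difference below carries a test, and every value describes these 2 libraries.

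Smooth muscle cells shorten when myosin filaments pull on actin filaments. Myosin light chain kinase starts contraction by phosphorylating the regulatory light chain of myosin, and calponin, caldesmon and transgelin sit along the actin filament, where calponin and caldesmon restrain the myosin motor. Leiomodin helps actin filaments form, while smoothelin and filamin A bind or cross-link them, and filamin A also binds the cytoplasmic tails of integrins. In the aortic wall these genes mark contractile smooth muscle cells, and their loss together with a gain of matrix genes is known as phenotypic modulation. Many of them are driven by serum response factor and its cofactor myocardin through a DNA element called the CArG box.

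The sequences before the annotated starts of 4 of the genes are shown because they carry the CArG boxes just described or lack them. Each line gives the 250 bases before a transcription start on GRCm38.p6 from RefSeq, 5′ to 3′ on the strand of the gene, with boxes of 10 bases that match the CArG pattern, or depart from it at 1 base, in capitals.
Acta2 (smooth muscle alpha-actin, chr19:34255374-34255623, minus strand): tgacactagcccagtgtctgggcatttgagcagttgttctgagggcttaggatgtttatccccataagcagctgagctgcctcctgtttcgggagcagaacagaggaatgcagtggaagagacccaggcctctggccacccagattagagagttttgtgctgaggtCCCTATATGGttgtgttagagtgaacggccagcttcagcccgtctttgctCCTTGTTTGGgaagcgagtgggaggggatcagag
Myl9 (myosin regulatory light chain, chr2:156775214-156775463, plus strand): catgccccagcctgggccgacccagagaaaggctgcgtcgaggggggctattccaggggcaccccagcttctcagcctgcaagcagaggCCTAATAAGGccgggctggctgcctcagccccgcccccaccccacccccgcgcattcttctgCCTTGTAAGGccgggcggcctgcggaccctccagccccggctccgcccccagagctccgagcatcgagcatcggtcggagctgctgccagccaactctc
Lmod1 (leiomodin, chr1:135324563-135324812, plus strand): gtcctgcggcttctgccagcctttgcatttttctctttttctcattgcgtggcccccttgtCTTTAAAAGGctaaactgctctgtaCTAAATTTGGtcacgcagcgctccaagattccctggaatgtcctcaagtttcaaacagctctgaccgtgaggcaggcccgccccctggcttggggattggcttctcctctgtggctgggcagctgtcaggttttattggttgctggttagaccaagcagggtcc
Cnn1 (calponin, chr9:22099003-22099252, plus strand): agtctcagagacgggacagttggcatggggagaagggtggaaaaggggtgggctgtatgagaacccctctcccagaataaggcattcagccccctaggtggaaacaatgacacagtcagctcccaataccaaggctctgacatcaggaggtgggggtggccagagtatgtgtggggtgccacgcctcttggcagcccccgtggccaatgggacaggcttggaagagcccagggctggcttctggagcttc
The Myl9 window held 1 exact box, CCTAATAAGG, 161 to 152 bases before the start, and a second, CCTTGTAAGG, that departed from the pattern at 1 base. Acta2 held 2 boxes that departed at 1 base, CCCTATATGG and CCTTGTTTGG, 84 to 75 and 34 to 25 bases before the start. Lmod1 also held 2 of the same kind, and Cnn1 held none. Windows that ran from 250 bases before to 50 bases after a start were found for 8 of the 10 genes, 9 windows in all, and 5 of the 9 (55.6%) held a box with at most 1 departing base. Over all 32851 windows of that length, 21.1% held such a box and 1.63% an exact one, and the pattern is its own reverse complement, so both strands were covered. Flna and Cald1 made up the other windows with a box, though another Cald1 window had none. Mylk and Smtn had none, and Myh11 and Tagln were not searched. The Mylk window began at 34784700 and so lay inside the gene as placed below. The windows of Smtn and Flna and the Cald1 window without a box also lay inside their genes. These matches describe letters only.

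On GRCm38, chromosome 19 carries Acta2 (34241090 to 34255590) and chromosome 16 carries both Myh11 (14194535 to 14291372) and Mylk (34745210 to 35002420). Tagln (45929619 to 45936058) and Cnn1 (22099216 to 22109630) lie on chromosome 9, Myl9 on chromosome 2 (156775420 to 156781658) and Lmod1 on chromosome 1 (135324807 to 135368065). Smtn lies on chromosome 11 (3517523 to 3540612), Flna on chromosome X (74223461 to 74249820) and Cald1 on chromosome 6 (34598500 to 34775473). All 10 are protein-coding genes. The last bases of Tagln are overlapped on the opposite strand by Pcsk7 over 108 bases, and the end of Mylk by the antisense gene Gm21691. The sources used here do not say whether counting used strand, so how reads of these overlapping stretches were assigned is not known here.

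After predicted doublets were removed, 4349 of 4397 GLPG0187 cells and 2945 of 2961 vehicle cells were used. The deposited values are whole numbers already corrected for depth, with median totals of 14942 in GLPG0187 cells and 14806 in vehicle cells, so the number of molecules behind a value is unknown, and cells with more or less RNA in all cannot be told apart. Cells were clustered without the 10 genes and without 37 other contractile genes, so that neither list entered the clustering. Naming was a later step, and its smooth muscle markers held some of the 37 genes, among them Actg2, Des and Tpm2. Smooth muscle cell-like (SMC-like) cells, named from markers outside the 10 genes, made up 38.1% of the GLPG0187 library (1657 cells, exact binomial 95% interval 36.7 to 39.6, counting error only) and 28.2% of the vehicle library (830 cells, 26.6 to 29.8). One sub-cluster of them, led by Cytl1, Vcam1, Timp1 and Tnfrsf11b, held 13 of 15 genes of a list for modulated smooth muscle cells at least 1.5-fold above the other SMC-like cells and is called modulated. It took 4.59% of SMC-like cells in the GLPG0187 library (76 cells, 3.63 to 5.71) and 16.7% in the vehicle library (139 cells, 14.3 to 19.5). The 15 smooth muscle markers outside the 10 genes were those that named the class. Their summed mean was 144 in GLPG0187 and 124 in vehicle SMC-like cells, none at 0. The other classes compared had at most 13.0 in GLPG0187 and 15.6 in vehicle cells. This gap follows in part from the naming, so it is no separate evidence for the class. The libraries shared 5 cell barcodes.

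All 10 genes had their highest mean in SMC-like cells in both libraries, as the plot of means by cell class shows. Together they made up 5.42% of all values in GLPG0187 SMC-like cells and 4.63% in vehicle ones. Means are given here in units of the deposited value per cell, and they are compared between cells and libraries for 1 gene at a time.

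**Figure D1:**
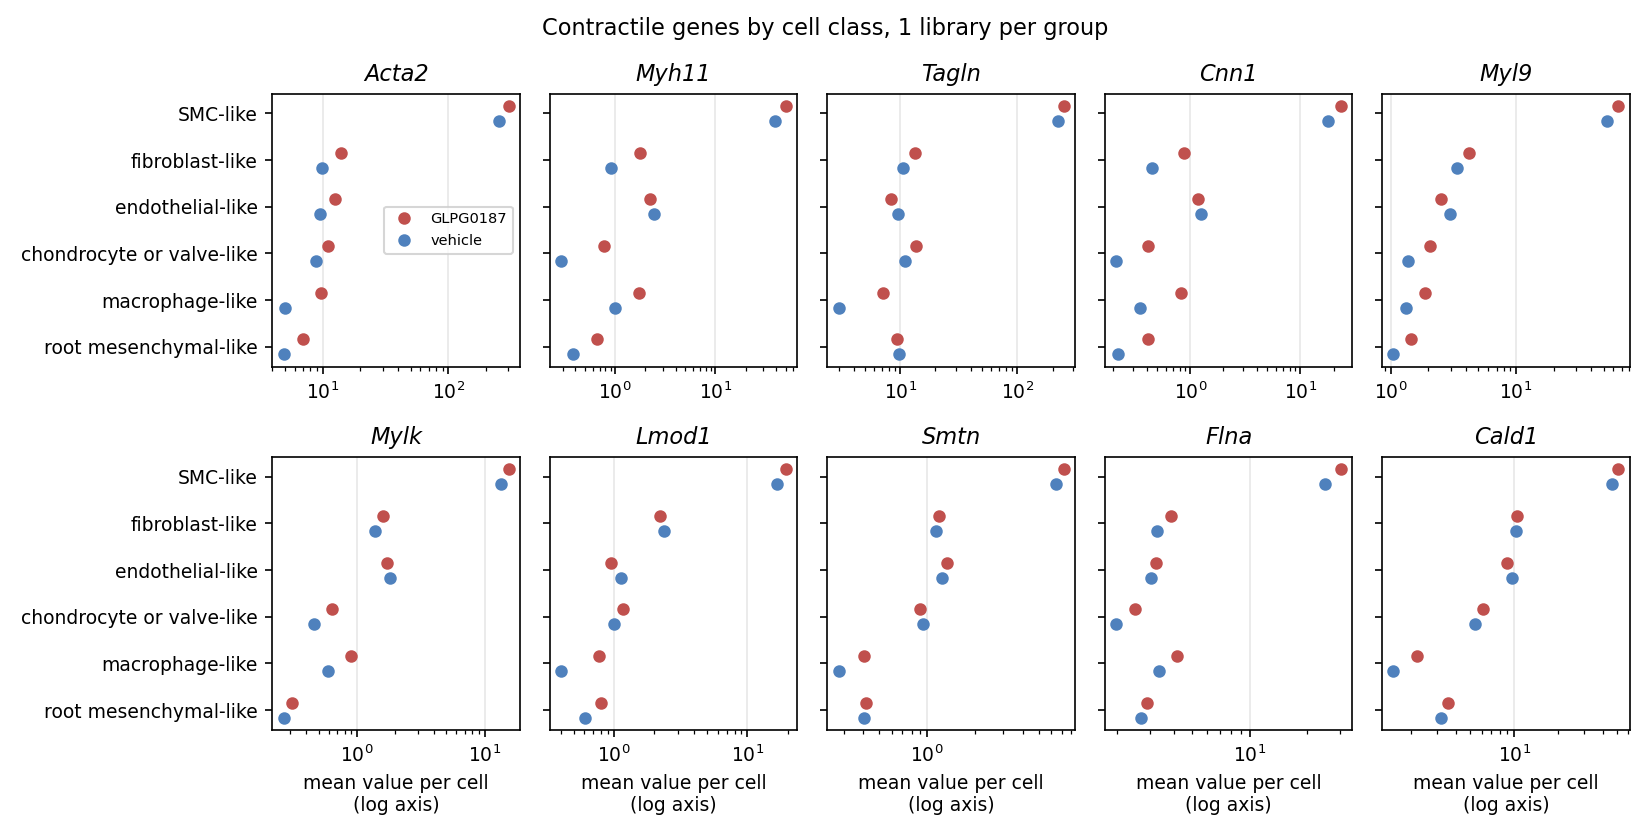
Mean deposited value per cell (log axis) of each of the 10 genes in 6 cell classes (rows), with the GLPG0187 library in red above the vehicle library in blue. SMC-like cells lie to the right of all other classes for every gene, for example at 301 in GLPG0187 and 254 in vehicle cells for Acta2, and no error is drawn because each group was 1 library.

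Of the genes for actin, myosin and its kinase, Acta2, the alpha-actin of smooth muscle, averaged 301 in GLPG0187 and 254 in vehicle SMC-like cells. Its coefficient of variation was 0.419 over the GLPG0187 cells and 0.573 over the vehicle cells. Its 10th, 50th and 90th percentiles over cells were 131, 302 and 458 in GLPG0187 cells and 55.9, 259.5 and 441.2 in vehicle cells. The gap between the libraries was thus wide at the low end and narrow at the high end. Myh11, the smooth muscle myosin heavy chain, averaged 50.7 in GLPG0187 cells and 39.5 in vehicle cells, with percentiles of 17, 47 and 88 in GLPG0187 cells and 5, 35 and 79 in vehicle cells. Myl9, the regulatory light chain, averaged 65.8 in GLPG0187 cells and 53.7 in vehicle cells. Its 10th percentile was 27 in GLPG0187 cells and 7 in vehicle cells, while its 90th was 101 in GLPG0187 and 94.1 in vehicle cells. Mylk, the kinase that acts on that light chain, averaged 15.4 in GLPG0187 cells and 13.4 in vehicle cells. The cells of the 2 libraries overlapped over nearly their whole range for each of these genes.

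Of the proteins along the actin filament, Cnn1, which encodes calponin, averaged 23.4 in GLPG0187 cells and 17.6 in vehicle cells, and 98.0% of the GLPG0187 and 92.3% of the vehicle SMC-like cells had a value above 0. Its 10th, 50th and 90th percentiles were 7, 23 and 40 in GLPG0187 cells and 1, 16 and 35.1 in vehicle cells. Among the 10 genes Cnn1 had the largest log2 difference between the libraries. Tagln, which encodes transgelin, averaged 248 in GLPG0187 cells and 223 in vehicle cells, and Cald1, which encodes caldesmon, averaged 51.3 in GLPG0187 cells and 46.6 in vehicle cells. Of the proteins that build or cross-link filaments, Lmod1 averaged 19.5 in GLPG0187 cells and 16.7 in vehicle cells, and Smtn, which encodes smoothelin, 7.15 in GLPG0187 cells and 6.36 in vehicle cells. Flna, which encodes filamin A, averaged 30.2 in GLPG0187 cells and 24.8 in vehicle cells. Means were thus higher in the GLPG0187 library for each of the 10 genes, by amounts smaller than the spread over cells.

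The sub-clusters of SMC-like cells, named here by leading genes, differed more than the libraries did. The modulated cells stood lowest for all 10 genes in both libraries. Cnn1 averaged 3.46 in the modulated cells of the GLPG0187 library and 24.4 in its other SMC-like cells, or 14.2% of their level, and 2.53 in modulated and 20.7 in other cells of the vehicle library, or 12.2%. Myl9 stood at 15.6% of the other cells in GLPG0187 cells and 14.2% in vehicle cells, Myh11 at 17.1% in GLPG0187 and 18.5% in vehicle cells, and Acta2 at 23.5% in GLPG0187 and 22.6% in vehicle cells. These 4 genes, for alpha-actin, the heavy and light chains of myosin and calponin, thus had the lowest remaining levels. Flna kept 31.1% in GLPG0187 cells and 31.2% in vehicle cells, Mylk 39.5% in GLPG0187 and 39.0% in vehicle cells, and Tagln 39.2% in GLPG0187 and 49.7% in vehicle cells. Lmod1 kept 49.8% in GLPG0187 cells and 51.6% in vehicle cells, Cald1 50.1% in GLPG0187 and 52.6% in vehicle cells, and Smtn 54.6% in GLPG0187 and 66.2% in vehicle cells. The median over the 10 genes was 35.1% in both libraries, and Tagln and Smtn were the 2 genes whose remaining share differed most between them. Modulated cells still held all 10 genes above the cells of the other classes. Acta2 averaged 73.4 in modulated cells of the GLPG0187 library and 65.9 in those of the vehicle library, against 14.1 in GLPG0187 and 9.94 in vehicle fibroblast-like cells, and its value was above 0 in 100% of modulated cells in both.

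**Figure D2:**
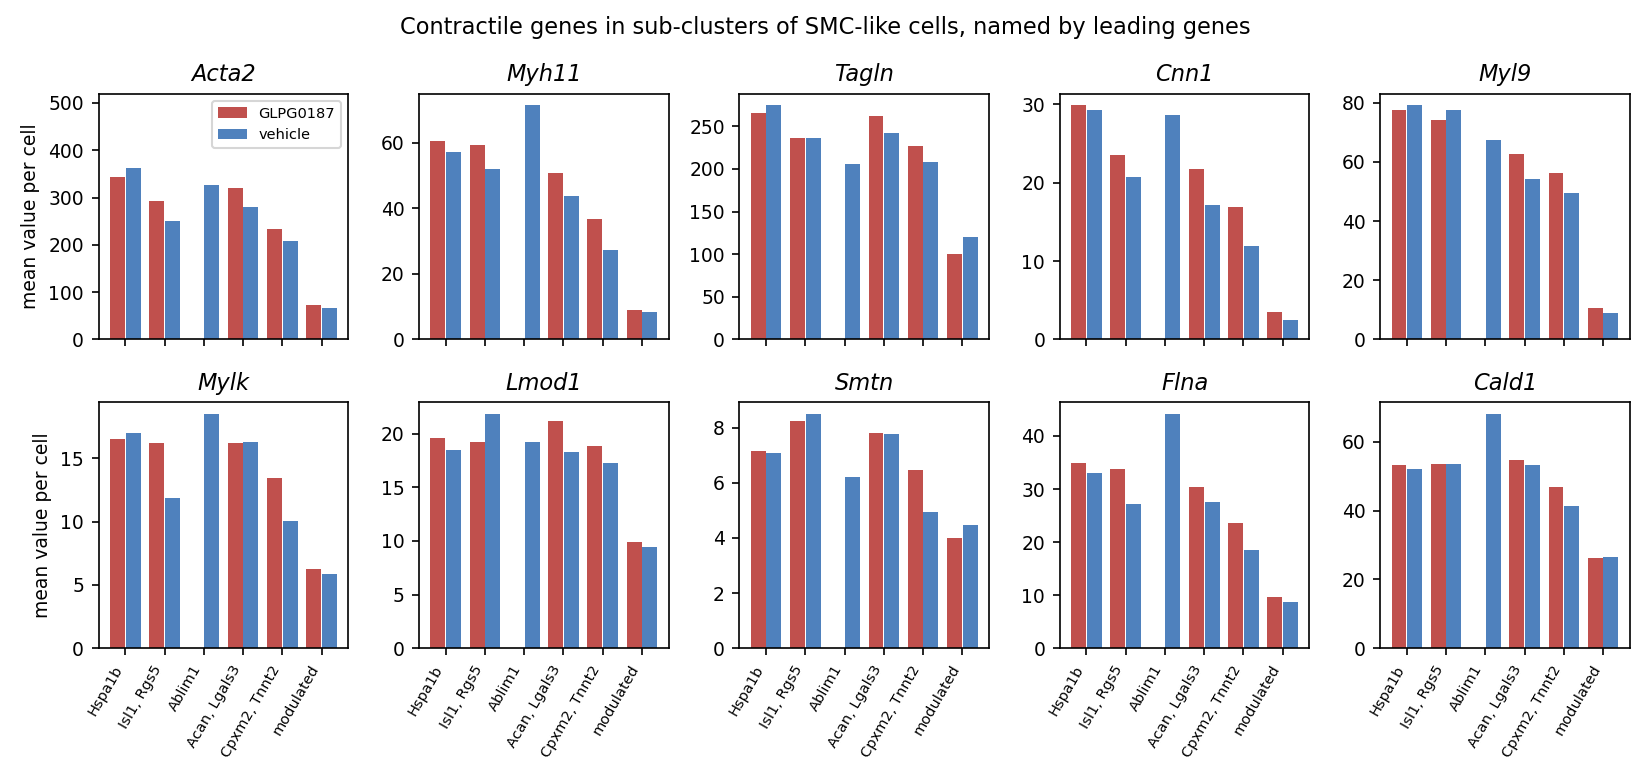
Mean deposited value per cell of each gene in 6 sub-clusters of SMC-like cells (named by leading genes), with the GLPG0187 library as red bars left of the vehicle library as blue bars and no error drawn. The modulated sub-cluster is lowest in every panel, for example 73.4 in GLPG0187 and 65.9 in vehicle cells for Acta2, and the sub-cluster led by Ablim1 holds vehicle cells only.

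Among the other sub-clusters that both libraries held, Acta2, Myh11, Myl9 and Cnn1 stood highest in cells led by heat shock genes and lowest in cells led by Cpxm2 and Tnnt2. The heat shock-led cells had Acta2 at 343 in the GLPG0187 library (671 cells) and 362 in the vehicle library (241 cells). Cnn1 stood at 29.9 in their GLPG0187 cells and 29.3 in their vehicle cells, and Myl9 at 77.5 in GLPG0187 and 79.2 in vehicle cells. They also had Hspa1a, a heat-inducible chaperone, at 20.3 in GLPG0187 cells and 31.9 in vehicle cells, against 11.8 over all GLPG0187 and 14.4 over all vehicle SMC-like cells, and its part in these levels was not tested. The cells led by Cpxm2 and Tnnt2 had Acta2 at 234 in the GLPG0187 library (305 cells) and 208 in the vehicle library (176 cells). Cnn1 stood at 16.9 in their GLPG0187 cells and 12.0 in their vehicle cells, and Myh11 at 36.6 in GLPG0187 and 27.4 in vehicle cells. Lmod1 hardly followed this order, with 19.6 in GLPG0187 and 18.5 in vehicle cells of the heat shock-led kind and 18.9 in GLPG0187 and 17.3 in vehicle cells of the kind led by Cpxm2. A sub-cluster led by Ablim1 and Kcnk3 was made of 0 of 1657 GLPG0187 cells, which allows a share of up to 0.181% (a limit of 3 cells), and of 34 of 830 vehicle cells. Its means of 71.4 for Myh11, 44.1 for Flna and 68.1 for Cald1 were the highest of any sub-cluster in either library, while its Tagln mean of 205 was below that of every other sub-cluster but the modulated one. A sub-cluster held by 1 library may be a trait of that library and not a kind of cell.

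To follow the genes along a gradient, SMC-like cells of each library were put in order and divided into quintiles. The order was set by the summed share of 16 other contractile genes, among them Myl6, Tpm2, Tpm1 and Des. The sum was not scaled by gene, so genes with high values weighed most. In GLPG0187 SMC-like cells Myl6 averaged 117, Tpm2 76.2 and Tpm1 36.6, against 2.61 for Des. None of the 10 genes entered this ordering. From the lowest to the highest quintile all 10 genes were higher at the top, but by very different factors, as the plot along the ordering shows. Cnn1 had means of 9.86 in the lowest and 34.4 in the highest quintile of the GLPG0187 library, a factor of 3.49, and 2.43 and 30.3 in the vehicle library, a factor of 12.4. The factors for Myl9 were 3.12 in GLPG0187 cells and 9.74 in vehicle cells, for Acta2 3.03 in GLPG0187 and 6.75 in vehicle cells, and for Myh11 2.63 in GLPG0187 and 7.90 in vehicle cells. The genes for calponin, alpha-actin and the heavy and light chains of myosin thus made up the steep end of the gradient. Tagln had factors of 2.26 in GLPG0187 cells and 3.19 in vehicle cells, and Flna 2.04 in GLPG0187 and 4.13 in vehicle cells. The shallow end was held by Mylk with 1.67 in GLPG0187 and 3.03 in vehicle cells, Smtn with 1.37 in GLPG0187 and 1.81 in vehicle cells, Cald1 with 1.27 in GLPG0187 and 1.89 in vehicle cells and Lmod1 with 1.247 in GLPG0187 and 1.97 in vehicle cells. Lmod1 and Cald1 reached their level by the second quintile in the GLPG0187 library, where the highest quintile lay at 0.964 and 0.955 times the second. Acta2, Myh11, Tagln, Cnn1, Myl9 and Flna were higher at each step in both libraries (6 of 10).

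**Figure D3:**
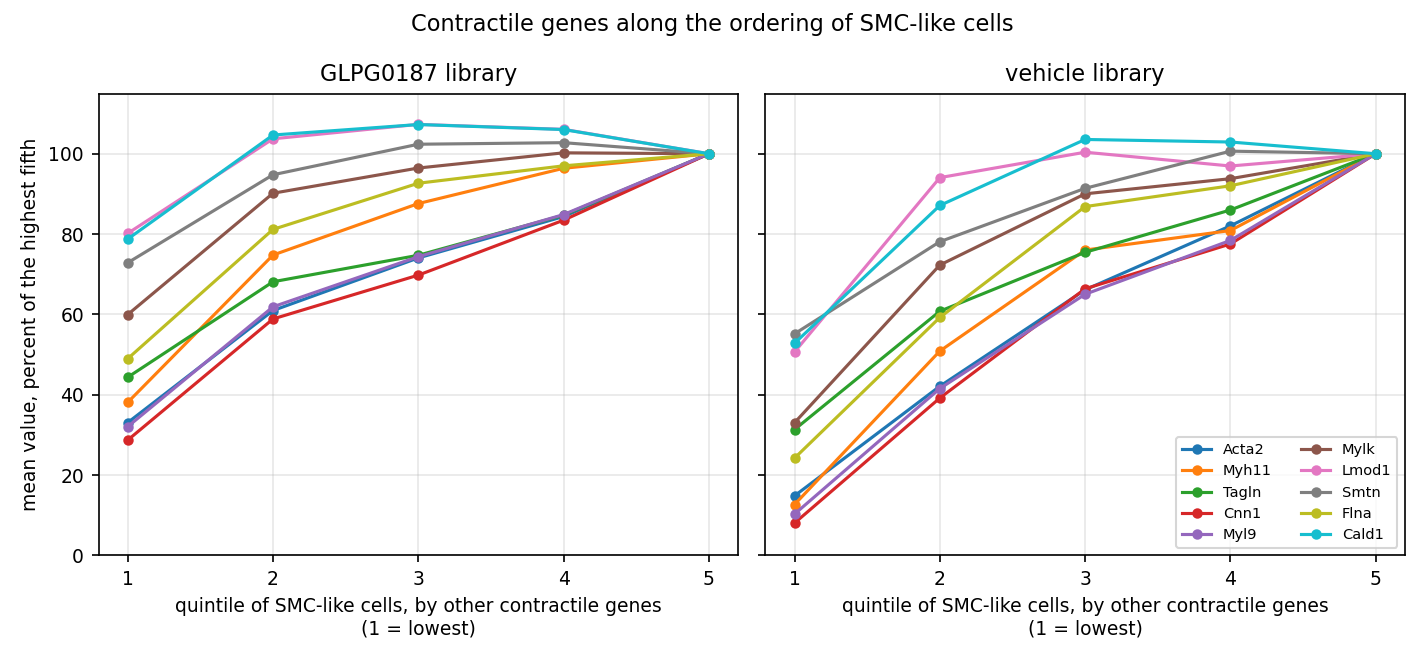
Mean of each of the 10 genes as a percent of its mean in the highest quintile (y axis), over quintiles of SMC-like cells ordered by 16 other contractile genes (x axis), in the GLPG0187 library (left) and the vehicle library (right). Cnn1 is lowest in the first quintile in both panels (9.86 against 34.4 in the highest quintile in GLPG0187 cells, 2.43 against 30.3 in vehicle cells), and Lmod1 and Cald1 flatten from the second quintile in the GLPG0187 library.

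All 10 factors were larger in the vehicle library, and the upper ends of the gradients lay close together. Acta2 averaged 427 in the highest quintile of the GLPG0187 library and 416 in that of the vehicle library, Myl9 93.2 in GLPG0187 and 91.0 in vehicle cells, and Myh11 63.9 in GLPG0187 and 61.7 in vehicle cells. The lower ends differed, with Acta2 at 141 in GLPG0187 cells and 61.7 in vehicle cells, Myl9 at 29.9 in GLPG0187 and 9.35 in vehicle cells, and Myh11 at 24.3 in GLPG0187 and 7.81 in vehicle cells. Modulated cells made up 22.9% of the lowest quintile in the GLPG0187 library (76 of 332 cells) and 70.5% in the vehicle library (117 of 166 cells), and no other quintile of the GLPG0187 library held any. Without the modulated cells the median factor over the 10 genes was 2.20 in the vehicle library, against 3.66 with them. The matching factor of the GLPG0187 library without its modulated cells is not given here, so the libraries are not compared on it. The number of genes detected per cell was alike at both ends, with medians of 4037.5 and 3870 in the lowest and highest quintile of the GLPG0187 library and 4061.5 and 4074.5 in those of the vehicle library.

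The genes varied together over cells to unequal degrees. Over the 45 pairs, the median Spearman correlation over SMC-like cells was 0.40 in the GLPG0187 library (1657 cells) and 0.50 in the vehicle library (830 cells), values that share a library, a depth correction and the presence of modulated cells. Without modulated cells the medians were 0.36 in GLPG0187 cells and 0.42 in vehicle cells. Myh11 and Flna formed the closest pair in the GLPG0187 library (0.72), and Acta2 and Myl9 in the vehicle library (0.84). Tagln and Lmod1 were the loosest pair in both, at 0.09 in GLPG0187 cells and 0.28 in vehicle cells, although both encode actin-binding proteins. Without modulated cells this pair stood at 0.01 in GLPG0187 cells and 0.04 in vehicle cells, and Myh11 and Flna were the closest pair in both libraries, at 0.69 in GLPG0187 cells and 0.75 in vehicle cells. Of 5939 genes outside the 10, those whose share over cells was most like the summed share of the 10 were Tpm2 (mean correlation over the libraries 0.85), Myl6 (0.77) and Dstn (0.75), which encode a tropomyosin, a myosin light chain and the actin-severing protein destrin. Ppp1r14a, Tpm1, Csrp1, Vim, Sh3bgr, Bcam and Rock1 followed, and 7 of these 10 were in the list of other contractile genes. At the opposite end stood Mgp (-0.56), Cd34 (-0.51), Nrp1 (-0.50) and Sptbn1 (-0.49), then Ftl1, Cst3, Vcam1, Smoc1, Myh9 and Timp2. Over the mean profiles of 20 clusters and sub-clusters of the libraries, Tpm2 was again the most alike (Pearson correlation 0.994), and Myocd, which encodes myocardin, stood among the first 10 at 0.982.

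Between the libraries, differences are given as the log2 of GLPG0187 over vehicle, after each sum was divided by the total of the class. In SMC-like cells the 10 genes had a median of 0.23, with a range of 0.14 to 0.41, and 10 of 10 were above 0. The median over all 10737 genes measured, those with a summed value of at least 100, was -0.04. A mark of 25% higher (log2 0.32) was passed by 2 of 10, Cnn1 (0.41) and Myh11 (0.36), against 2.51% of all genes measured in these cells. The mark of the same size downward (log2 -0.32) was passed by 0 of 10, against 10.1%. No gene of the 10 was 1.5-fold higher, which 0.484% of genes were. Myl9 (0.30), Flna (0.29), Acta2 (0.25) and Lmod1 (0.22) came next, and Mylk (0.20), Smtn (0.17), Tagln (0.16) and Cald1 (0.14) were the least different. Cnn1, Myh11 and Myl9, of the steep end of the gradient, thus had the 3 largest differences.

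The median was above 0 within each sex and smaller once the modulated cells were left out. Cells with Xist and no Y-linked transcript, from females, had a median of 0.16 over the 10 genes (464 GLPG0187 and 253 vehicle SMC-like cells), and cells with Y-linked transcripts and no Xist, from males, had 0.26 (1045 GLPG0187 and 507 vehicle cells). Cnn1 and Myh11 passed the 25% mark in both sexes, 2 of 10 each, against 4.04% of genes among Xist-only cells and 3.99% among Y-only ones. For 8 of the 10 genes both sexes of the GLPG0187 library lay above both sexes of the vehicle library, as they did for 11.1% of genes measured. Cnn1 averaged 21.8 in Xist-only GLPG0187 cells and 24.5 in Y-only ones, against 16.5 in Xist-only vehicle cells and 18.6 in Y-only ones. Tagln and Smtn were the exceptions, since Tagln averaged 227 in Xist-only cells of the GLPG0187 library, against 231 in Y-only cells of the vehicle library. Without modulated cells the median was 0.12, from 0.06 to 0.24, still with 10 of 10 above 0 but with 0 of 10 past the 25% mark, against 2.34% of genes.

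**Figure D4:**
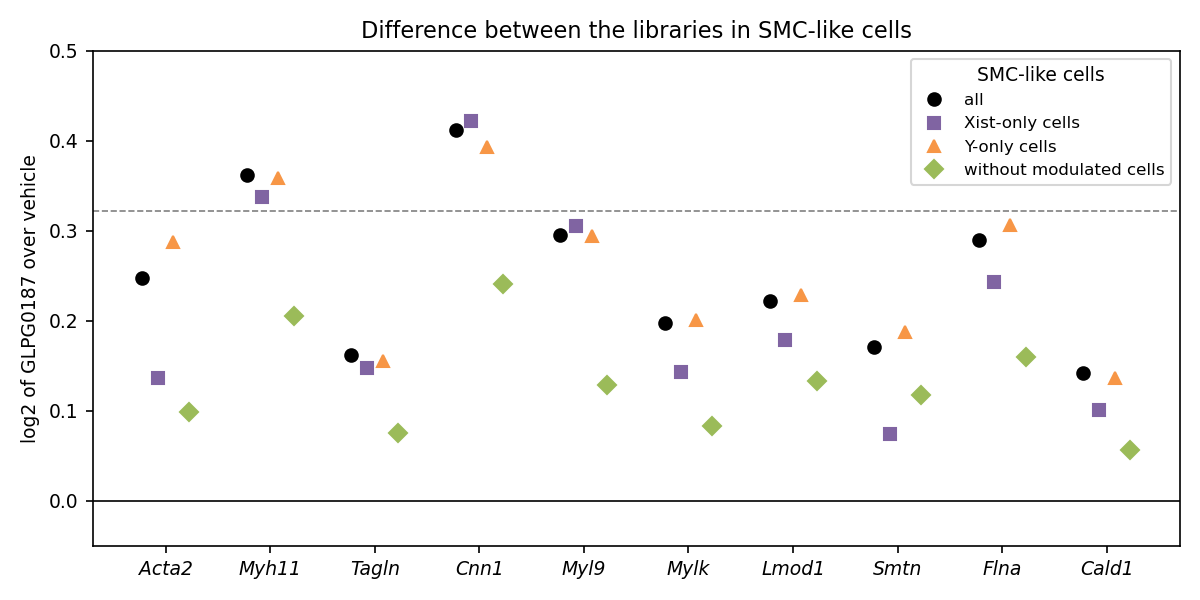
Log2 of GLPG0187 over vehicle for each of the 10 genes in all SMC-like cells (black circles), their Xist-only cells (purple squares), their Y-only cells (orange triangles) and SMC-like cells without the modulated ones (green diamonds). The dashed line marks a value 25% higher, and all points lie above 0, with the green diamonds between 0.06 and 0.24.

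Within single sub-clusters the differences were uneven. Cells led by heat shock genes had a median of 0.04 with 0 of 10 past the mark, against 4.36% of genes, and cells led by Acan and Lgals3 had 0.17 with 1 of 10, Cnn1, against 3.74%. Cells led by Cpxm2 and Tnnt2 had a median of 0.26 with 5 of 10, against 7.71%, and these were Cnn1 (0.49), Myh11 (0.41), Mylk (0.41), Smtn (0.38) and Flna (0.35). In the modulated cells the median was 0.10, 1 of 10 passed the mark, Cnn1 (0.46), against 7.68% of genes, and Tagln (-0.26), Smtn (-0.15) and Cald1 (-0.01) were below 0. The differences between sub-clusters were not tested.

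When both libraries were put in 1 ordering, their SMC-like cells fell differently along it. The lowest pooled quintile held 14.2% of the GLPG0187 cells (236 of 1657, interval 12.6 to 16.0) and 31.6% of the vehicle cells (262 of 830, 28.4 to 34.8), and the highest quintile held 22.7% of the GLPG0187 cells (20.7 to 24.8) and 14.6% of the vehicle cells (12.2 to 17.2). Of the cells in the lowest quintile, 31.8% were modulated in GLPG0187 cells and 52.3% in vehicle cells. Within that lowest quintile 5 of 10 genes were at least 25% higher in GLPG0187 cells, against 5.66% of genes measured there. These were Cnn1 (7.36 in GLPG0187 cells and 4.94 in vehicle cells, log2 0.58), Flna (0.41), Myl9 (0.40), Myh11 (0.38) and Acta2 (0.35), while Tagln (132 in GLPG0187 and 129 in vehicle cells, log2 0.04) and Smtn (0.04) hardly differed. In the 4 higher quintiles the medians lay between 0.03 and 0.06 and 0 of 10 genes passed the mark, against 4.33%, 6.03%, 5.49% and 5.92% of genes from the second to the highest quintile. At the low end the mix of modulated and other cells also differed between the libraries, and its part was not tested. The ordering rests on contractile genes that vary with the 10, so cells of 1 quintile were already matched on much of what the 10 genes show, and small differences within a quintile are given as values only.

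**Figure D5:**
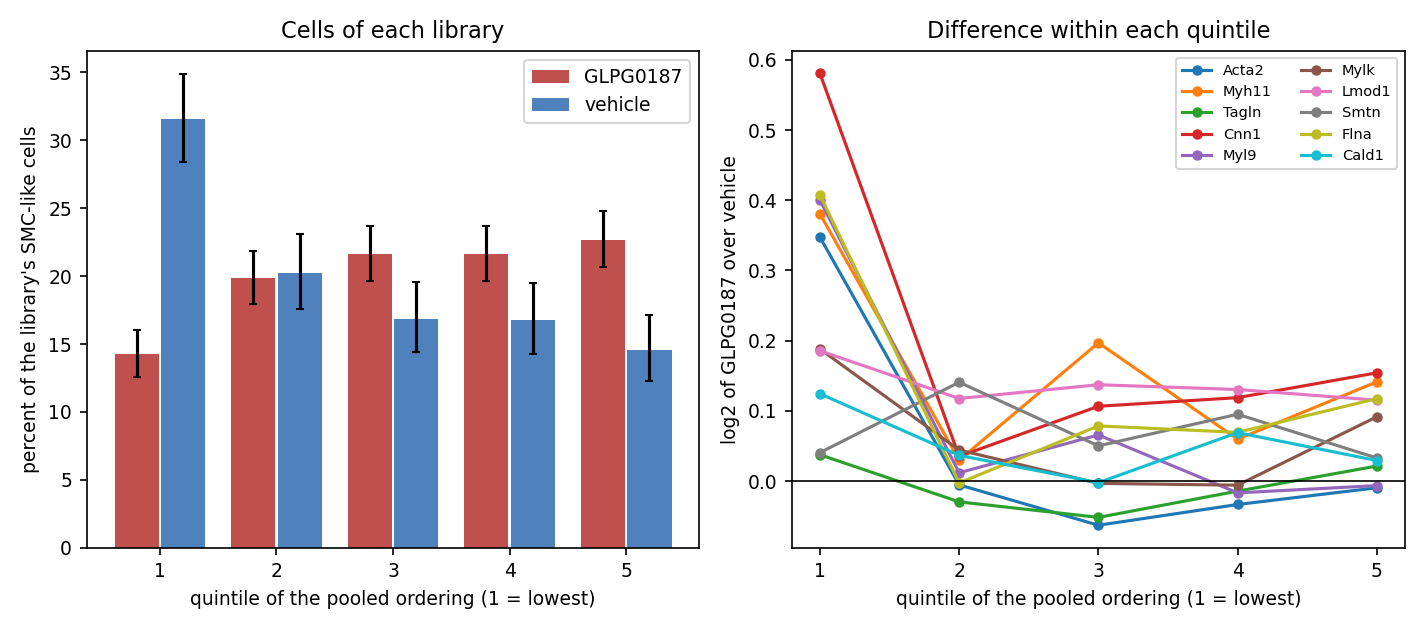
Left, percent of each library's SMC-like cells in each quintile of the pooled ordering, with GLPG0187 in red left of vehicle in blue and bars showing exact binomial 95% intervals (counting error only). Right, log2 of GLPG0187 over vehicle for each gene within each quintile. The lowest quintile holds 14.2% of GLPG0187 and 31.6% of vehicle cells, and it is the only quintile where any of the 10 genes passes the 25% mark (log2 0.32).

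Markers of other cell types were low in SMC-like cells. Their summed means differed between the libraries in both directions, while most markers past the mark were lower in GLPG0187 cells. The summed means of 10 fibroblast markers were 19.1 in GLPG0187 cells and 22.4 in vehicle cells. Of 9 measured fibroblast markers, 1 passed the mark upward and 3 downward, against 2.51% of all genes upward and 10.1% downward. Those of 10 macrophage markers summed to 0.518 in GLPG0187 cells and 0.601 in vehicle cells, and of 4 measured 0 passed upward and 2 downward. Summed means of 9 endothelial markers were 0.747 in GLPG0187 and 0.796 in vehicle cells, with 0 of 2 measured past the mark in either direction. For 6 cardiomyocyte markers they were 1.42 in GLPG0187 and 1.82 in vehicle cells, with 0 of 5 measured past it upward and 4 downward. The 5 pericyte markers went the other way in their summed means, at 4.75 in GLPG0187 and 4.54 in vehicle cells. Of 3 measured pericyte markers, 0 passed the mark upward and 1 downward. The summed endothelial markers also went the other way once modulated cells were left out, at 0.670 in GLPG0187 and 0.616 in vehicle cells. The part of markers of other cell types in the differences was not tested. The 37 other contractile genes had a median difference of 0.21 in the same cells, and 33 of 37 were above 0. Tes (0.41), Des (0.33) and Sorbs2 (0.33), which encode testin, desmin and a sorbin adaptor protein, passed the mark upward, 3 of 37 against 2.51% of all genes, and 0 of 37 passed it downward, against 10.1%, with Fhl2 lowest at -0.28. Without modulated cells 0 of 37 passed it in either direction, with Tes at 0.27, Sorbs2 at 0.26 and Des at 0.14.

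Close relatives of the 10 genes differed in both directions. Of 24 relatives found, 16 were measured in SMC-like cells, among them the smooth muscle gamma-actin Actg2 (0.16), and they had a median of -0.02 with 7 of 16 above 0. The mark upward was passed by 2 of 16, Flnc (0.44) and Mylk4 (0.33), against 2.51% of all genes. Those that passed it downward, 3 of 16 against 10.1%, were Myl12b (-0.47), a light chain of non-muscle myosin, Myh9 (-0.46), a heavy chain of non-muscle myosin, and Actc1 (-2.04), cardiac actin. Without modulated cells Flnc was at 0.28, Mylk4 at 0.27, Myl12b at -0.29 and Myh9 at -0.04, so that Actc1 (-2.24) alone still passed the mark. Actc1 was close to 0 in both libraries, with means of 0.0519 in GLPG0187 cells and 0.216 in vehicle cells. Along the ordering Myh9 ran opposite to Myh11, with 3.46 in the lowest and 0.867 in the highest quintile of the GLPG0187 library and 5.21 and 0.777 in the vehicle library. In modulated cells Myh9 stood at 5.57 in GLPG0187 cells and 5.97 in vehicle cells, against 1.43 in GLPG0187 and 1.47 in vehicle cells among the other SMC-like cells. Tagln2 and Cnn2, relatives of Tagln and Cnn1, differed little along the ordering, with factors of 0.859 and 1.09 in the GLPG0187 library and 0.887 and 1.09 in the vehicle library. How reads that near-identical genes share were counted is not stated in the sources used here, which adds uncertainty between Acta2 and the other actins.

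Outside SMC-like cells the 10 genes were far lower. Fibroblast-like cells stood at a median of 8.39% of the SMC-like level in GLPG0187 cells and 8.33% in vehicle cells, endothelial-like cells at 4.95% in GLPG0187 and 6.88% in vehicle cells, and chondrocyte or valve-like cells at 4.83% in GLPG0187 and 4.21% in vehicle cells. Macrophage-like cells stood at 3.75% in GLPG0187 cells and 2.48% in vehicle cells, and root mesenchymal-like cells, led by Prss35 and Tbx20, at 3.03% in GLPG0187 and 2.81% in vehicle cells. The genes split by how far they were tied to SMC-like cells. In fibroblast-like cells Myh11 held 3.48% of its SMC-like level in GLPG0187 cells and 2.32% in vehicle cells, Cnn1 3.71% in GLPG0187 and 2.56% in vehicle cells, and Acta2 4.67% in GLPG0187 and 3.91% in vehicle cells. Cald1 held 20.5% in GLPG0187 cells and 22.1% in vehicle cells, Smtn 16.6% in GLPG0187 and 17.9% in vehicle cells, Flna 12.8% in GLPG0187 and 13.2% in vehicle cells, and Lmod1 11.5% in GLPG0187 and 14.2% in vehicle cells. Myh11, Cnn1 and Acta2, of the steep end of the gradient, were thus the most tied to smooth muscle in this class, and Cald1 and Smtn the least.

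In droplet data, RNA set free from broken cells can give low values in cells that do not use a gene, so values in macrophage-like cells, a kind of cell not known for most of these genes, are set beside those in fibroblast-like cells. The amount of free RNA was not estimated. Acta2 was above 0 in 98.8% of macrophage-like cells of the GLPG0187 library and 90.5% of those of the vehicle library, with medians of 4 in GLPG0187 and 3 in vehicle cells, and in 98.8% of GLPG0187 and 95.5% of vehicle fibroblast-like cells. Myh11 was above 0 in 47.9% of GLPG0187 and 41.9% of vehicle macrophage-like cells, against 53.4% of GLPG0187 and 46.4% of vehicle fibroblast-like cells. Cnn1 was above 0 in 34.7% of GLPG0187 and 20.1% of vehicle macrophage-like cells, against 38.5% of GLPG0187 and 29.0% of vehicle fibroblast-like cells. Shares of fibroblast-like cells with Acta2 and Myh11 were thus equal to those in macrophage-like cells or above them by a few points. For Cnn1 they were likewise higher, and the gap was wider in the vehicle library. Acta2 means were 14.1 in GLPG0187 and 9.94 in vehicle fibroblast-like cells, against 9.68 in GLPG0187 and 5.01 in vehicle macrophage-like cells. Macrophage-like cells had medians of 3204.5 genes detected in GLPG0187 and 3060 in vehicle cells, against 3394 in GLPG0187 and 3390 in vehicle fibroblast-like cells. Cald1 shares differed more, with 55.7% of GLPG0187 and 52.5% of vehicle macrophage-like cells above 0. In fibroblast-like cells the share was 99.2% in both libraries, with medians of 9. Lmod1 was above 0 in 23.7% of GLPG0187 and 24.6% of vehicle macrophage-like cells, against 64.2% of GLPG0187 and 68.8% of vehicle fibroblast-like cells. Smtn was likewise above 0 in 19.2% of GLPG0187 and 17.3% of vehicle macrophage-like cells, against 57.9% of GLPG0187 and 56.2% of vehicle fibroblast-like cells. In macrophage-like cells 4 of 10 genes, Acta2, Myh11, Cnn1 and Lmod1, held in both libraries a share of the summed 10 that differed from their share in SMC-like cells by less than the 25% mark. Flna departed most, at 3.77 times that share in GLPG0187 cells and 5.61 times in vehicle cells. Its means in macrophage-like cells were 4.15 in GLPG0187 and 3.35 in vehicle cells. These lay above its means in root mesenchymal-like cells, 2.88 in GLPG0187 and 2.70 in vehicle cells. Mylk and Smtn also held a larger share in both libraries, and Tagln a smaller one. Myl9 and Cald1 were past the mark in a single library each. Counted by library, 5 of 10 genes lay within the mark in macrophage-like cells of each. In endothelial-like cells 3 of 10 did in GLPG0187 and 4 of 10 in vehicle cells.

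The ranks of the other classes differed from gene to gene and rest on gaps of at most a few units. Fibroblast-like cells came second for Acta2, Myl9, Lmod1 and Cald1, and endothelial-like cells for Cnn1, Mylk and Smtn, in both libraries. Chondrocyte or valve-like cells came second for Tagln, with 13.8 in GLPG0187 cells and 11.01 in vehicle cells, next to 13.3 in GLPG0187 and 10.6 in vehicle fibroblast-like cells. Myh11 in endothelial-like cells averaged 2.21 in GLPG0187 cells and 2.41 in vehicle cells, next to 1.76 in GLPG0187 and 0.917 in vehicle fibroblast-like cells. Endothelial-like cells came second for Myh11 in the GLPG0187 library only, since in the vehicle library Schwann-like cells averaged 3.16. Schwann-like cells were too few to compare between the libraries, with 48 in GLPG0187 cells and 51 in vehicle cells, and ranked first among the non-muscle classes for Flna when the 2 library means were averaged, with 3.81 in GLPG0187 and 3.96 in vehicle cells.

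Outside SMC-like cells the median log2 difference was larger than their 0.23 in 4 of the 5 classes compared, and Cnn1 and Myh11 differed most in fibroblast-like and root mesenchymal-like cells. In fibroblast-like cells the median was 0.27 and 3 of 10 passed the 25% mark, against 7.07% of genes, namely Myh11 (0.94), Cnn1 (0.94) and Acta2 (0.49). Cald1 (0.02), Smtn (0.06) and Lmod1 (-0.09) hardly differed there. The 2 fibroblast-like clusters were unlike each other in their means. The cluster led by Clec3b and Pi16 had 5 of 10 past the mark, against 9.79% of genes, with Acta2 at 11.1 in GLPG0187 cells and 5.86 in vehicle cells and Tagln at 9.33 in GLPG0187 and 4.61 in vehicle cells. The medians over its cells lay closer, at 6 in GLPG0187 and 4 in vehicle cells for Acta2 and 4 in GLPG0187 and 3 in vehicle cells for Tagln. The GLPG0187 mean of Tagln was above the 75th percentile of its cells, which was 6, so that a small number of high cells raised that mean. The cluster led by Il6 and Ptgs2, genes of the stress and inflammatory response, had 2 of 10, Myh11 and Cnn1, against 5.70%. Acta2 stood there at 19.2 in GLPG0187 cells and 19.0 in vehicle cells, and Tagln at 20.1 in GLPG0187 and 23.8 in vehicle cells. High cells raised these means as well, since the medians were 7 in GLPG0187 and 6 in vehicle cells for Acta2 and 5 in both for Tagln.

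In root mesenchymal-like cells 5 of 10 passed the mark, against 4.63% of genes, and the median was 0.32, with Cnn1 at 0.90, Myh11 at 0.80, Acta2 at 0.51, Myl9 at 0.48 and Lmod1 at 0.40. In chondrocyte or valve-like cells 7 of 10 passed it, against 13.5%, with a median of 0.34 and Myh11 at 1.43 on means of 0.780 in GLPG0187 cells and 0.289 in vehicle cells. In macrophage-like cells 9 of 10 passed it, against 15.2%, with a median of 0.66. Tagln averaged 7.12 in GLPG0187 cells and 2.98 in vehicle cells there (1.23). Acta2 averaged 9.68 in GLPG0187 and 5.01 in vehicle cells, above its medians given earlier for these cells, so high cells raised its means. The sexes went opposite ways in this class, with a median log2 of -0.78 in Xist-only cells (38 GLPG0187 and 37 vehicle cells) and 1.02 in Y-only cells (238 GLPG0187 and 117 vehicle cells). Endothelial-like cells went against this, with a median of -0.12 and 1 of 10 past the mark, Acta2 (0.38), against 14.0% of genes, and here too the sexes went opposite ways, with 0.47 for Xist-only cells (50 GLPG0187 and 26 vehicle cells) and -0.37 for Y-only ones (81 GLPG0187 and 56 vehicle cells).

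Set beside these values, the mean over all cells of each library, a pool that free RNA may come from, was also higher in the GLPG0187 library for all 10 genes. The larger share of SMC-like cells in the GLPG0187 library, 38.1% against 28.2% in the vehicle library, enters these means. Cnn1 averaged 9.35 over all GLPG0187 cells and 5.25 over all vehicle cells (0.83), Myh11 20.1 in GLPG0187 and 11.7 in vehicle cells (0.77), and Acta2 121 in GLPG0187 and 77.1 in vehicle cells (0.65). The median over the 10 genes was 0.56, from 0.40 for Cald1 to 0.83 for Cnn1. Over all cells that were not SMC-like the median was 0.20, with Cnn1 at 0.83, Myh11 at 0.72, Acta2 at 0.49, Lmod1 at 0.01 and Cald1 at 0.00. The part of free RNA in the values outside SMC-like cells was not tested.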

How the data were processed

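The 2 tables hold whole-number values per gene and cell. Per the submitters' processing notes, reads were processed with Cell Ranger and Seurat against mm10 (the sources used here give no versions). The deposited values are treated as a score: the authors had corrected them for depth, since totals per cell vary by only 5.69% (coefficient of variation, GLPG0187) and 5.81% (vehicle), so no count model was used. The sources used here do not state how this was done, and raw depth is unknown. The notes made before the files were read had assumed either counts or scores, and with 1 library per group neither gives a test.

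No cell fell under 200 genes or over 20% mitochondrial values, so 0 were filtered. Scrublet, as run in scanpy 1.11.5, marked 48 GLPG0187 and 16 vehicle cells as doublets (1.09% and 0.540%), which were removed. Cells were clustered (2000 variable genes, 30 components, 20 neighbours, Leiden resolution 0.5) without the 10 genes and 37 other contractile genes. A cluster was named when at least 3 markers and 45% of a class's measured markers were above 0 in 25% of its cells and over 3 times the median cluster. A sub-cluster was called modulated when at least 70% of the modulated list was 1.5-fold above the other SMC-like cells. These thresholds were set after seeing the data. Classes were rebuilt here, so shares may differ from the authors'.

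Values were summed per library and class, divided by the class total and compared as log2 with a pseudocount of 1, for genes with a sum of at least 100. Gene positions come from GENCODE on GRCm38 and sequences from RefSeq. Named genes were the 10 genes, the 10 most and 10 least like them, and all others past the fold mark. Exact Clopper-Pearson 95% intervals cover counting error only. The scripts were tested on simulated data. The members and lists were chosen with earlier results of these data known.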

Additional observations from a re-analysis of the deposited data

Results flagged for a closer look

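The median log2 of GLPG0187 over vehicle over the 10 genes had opposite signs in the cells of each sex in 2 small classes. In macrophage-like cells it was -0.78 in Xist-only cells (38 GLPG0187 and 37 vehicle cells) and 1.02 in Y-only cells (238 GLPG0187 and 117 vehicle cells). In endothelial-like cells it was 0.47 in Xist-only cells (50 GLPG0187 and 26 vehicle cells) and -0.37 in Y-only cells (81 GLPG0187 and 56 vehicle cells). These medians include genes with a summed value under 100, since 5 of 10 passed that minimum in Xist-only macrophage-like cells. The differences between the sexes were not tested, and each library is 1 pool.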

How the results depend on the processing

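In SMC-like cells all 10 genes kept a log2 of GLPG0187 over vehicle above 0 under each of the 12 alternatives, among them one chosen after seeing the data, which left out the sub-cluster held by 1 library. Without modulated cells the median of the 10 genes was 0.12 (0.23 with them) and 0 genes passed the 25% mark. Median-of-ratios scaling brought 4 of the 10 genes past 25%, against 3.82% of all genes measured (2.51% by class totals), and a mark of 1.5-fold left 0. With no minimum on summed values, 9.45% of all genes passed 25% upward. With doublets kept, the median was 0.59 in root mesenchymal-like cells and the level in macrophage-like cells was 4.13% of the SMC-like one, against 3.06%. Xist-only cells gave medians of 0.42 in root mesenchymal-like, -0.78 in macrophage-like (reversed) and 0.47 in endothelial-like cells, where the level was 7.92% of the SMC-like one. Y-only cells gave 1.02 in macrophage-like and -0.37 in endothelial-like cells, with a level of 4.57% in endothelial-like cells, against 5.91% in all. The median factor between the highest and lowest part of the ordering was 2.15 in GLPG0187 cells and 3.66 in vehicle cells. It was 1.51 in GLPG0187 and 2.66 in vehicle cells when cells were ordered by falling modulated genes. With deciles it was 3.00 in GLPG0187 and 5.42 in vehicle cells. Without modulated cells it was 2.20 in vehicle cells, and the GLPG0187 value is not given here. The share of cells in the lowest pooled part was 16.5% in GLPG0187 and 27.0% in vehicle cells by falling modulated genes, 17.0% in GLPG0187 and 27.1% in vehicle cells without modulated cells, and 5.73% in GLPG0187 and 18.6% in vehicle cells with deciles. The cause was not tested, beyond the smaller part that deciles take by construction. The other 85 recomputed values that answer a comparison stayed within their tolerance. No paired analysis was possible because each group held 1 library, and for the same reason no replicate could be left out. Raw depth is unknown, so no limit from counts can be given.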

Other observations

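Other cytoskeletal genes, chosen for this paragraph after their values were seen, also followed the ordering of SMC-like cells to unequal degrees. Dstn, which encodes destrin, differed between the highest and lowest quintile by a factor of 2.35 in GLPG0187 and 5.22 in vehicle cells, and Csrp2, a LIM-domain protein of smooth muscle, by 1.83 in GLPG0187 and 4.37 in vehicle cells. Of genes for proteins of cell adhesion sites, Vcl, which encodes vinculin, stood at 1.11 in GLPG0187 and 1.28 in vehicle cells and Tln1, which encodes talin, at 1.21 in GLPG0187 and 1.61 in vehicle cells. Zyx, which encodes zyxin, stood at 1.30 in GLPG0187 and 2.08 in vehicle cells, and Actn1, an alpha-actinin, at 1.54 in GLPG0187 and 2.95 in vehicle cells. Cytoplasmic Actg1 stood at 1.11 in both libraries. Myocd, which encodes myocardin, averaged 0.842 in modulated cells of the GLPG0187 library and 0.662 in those of the vehicle library. The other SMC-like cells had 2.74 in GLPG0187 and 2.43 in vehicle cells. Srf, which encodes serum response factor, averaged 0.303 in modulated and 0.620 in other SMC-like cells of the GLPG0187 library. In the vehicle library Srf hardly differed, at 0.554 in modulated and 0.566 in other SMC-like cells.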
